A study of Homo sapiens with 9 samples.

Results

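The miRBase entries hsa-miR-3648, hsa-miR-3687, hsa-miR-3656 and hsa-miR-3651, whose sequences are said to lie in ribosomal RNA units or in a small nucleolar RNA (snoRNA), were followed from HMC-1 cells into the RNA that these cells release. They were chosen by name, 1 probe each, and make up 4 of the 2019 miRNA probes on the array and 4 of the 334 probes that were tested. HMC-1 is an established human mast cell line that grew out of a mast cell leukaemia. The study isolated RNA from 3 cultures in 3 forms: extracellular RNA from the low density fractions of a sucrose gradient (LD, 3 arrays), extracellular RNA from its high density fractions (HD, 3 arrays) and RNA of the cells (3 arrays). No treatment or genotype separates the groups, all of which come from the 1 line, and the series' design text pairs the LD, HD and cell samples of a number as 1 culture. Each sample was hybridised to its own 1-colour array.

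Ribosomal RNA is transcribed in the nucleolus as 1 long precursor that holds the 18S, 5.8S and 28S RNAs between spacers, and the spacers are cut out and degraded as the ribosome matures. SnoRNAs stay in the nucleolus and guide the chemical modification of ribosomal RNA; those of the H/ACA class guide the change of uridine to pseudouridine and carry the bases ACA close to the 3′ end. Short pieces of both kinds of RNA are recovered in small RNA libraries, and some were entered in miRBase as miRNAs. A probe for such an entry can bind a processed short RNA, a breakdown product or the longer parent RNA, and the array does not tell these apart.

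The mature sequences of the 2 members held in the RefSeq-based table (build GRCh38.p14) are shown because they set the 2 kinds of entry side by side. The seed, bases 2 to 8, is in capitals.
hsa-miR-3648: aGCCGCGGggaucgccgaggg
hsa-miR-3651: cAUAGCCCggucgcugguacauga
The miR-3648 sequence is 21 bases long with 81.0% G plus C, and the table places it on chr21:8987026-8987046, plus strand, in the copy MIR3648-2. No ribosomal RNA or snoRNA gene annotated in that build overlaps it there. In the same assembly the other copy, MIR3648-1, lies inside the ribosomal RNA precursor gene RNA45SN2, in the stretch ahead of its 18S part, RNA18SN2. The miR-3651 sequence is 24 bases long with 58.3% G plus C and lies on chr9:92292461-92292484, minus strand, inside the protein-coding gene IARS1, which encodes an isoleucyl-tRNA synthetase. Of the 90 bases of its hairpin, 87 overlap the snoRNA gene SNORA84. The hairpin is shown with the mature part, bases 64 to 87, in capitals.
MIR3651 hairpin: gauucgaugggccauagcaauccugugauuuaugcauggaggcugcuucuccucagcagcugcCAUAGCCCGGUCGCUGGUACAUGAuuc
The mature part ends at the same base as the SNORA84 annotation, and the letters ACA stand 3 bases before that end. In 29 of 2370 mature sequences of the table (1.22%) ACA stands at that place. The 2 seeds differ, and no other mature sequence in the table has either of them. Sequences of miR-3687 and miR-3656 were not used here.

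The levels below are intensities that the authors had background-subtracted and scaled so that the median detected miRNA probe of each array is 25. They are called normalized signal, and levels of different probes were not set against each other. Detection follows the files, which give a probe no normalized signal where it was not detected; a limit of 2 SD above the blank spots matched this for 99.8% of the values. Detected miRNA probes numbered 340 ± 33.3 in LD, 302 ± 41.7 in HD and 472 ± 33.0 in cells (mean ± SD, n = 3). Of 7 mast and blood cell miRNAs, 6 were detected on all cell arrays and miR-155-5p on none, and their summed signal ran from 520 to 1087 in LD, from 13.2 to 56.0 in HD and from 2323 to 4367 in cells. None of 10 epithelial, liver and muscle miRNAs was detected on all arrays of any group. The endothelial marker miR-126-3p was detected on all LD and all cell arrays and on no HD array, with geometric means of 27.4 in LD and 85.8 in cells. Of 2 neural markers, miR-9-5p was detected on 2 LD arrays, no HD array and all cell arrays, and miR-124-3p on 1 LD array only. The red cell miRNA miR-451a was detected on all LD and HD arrays and on 2 cell arrays, and the summed signal of the 3 red cell markers ran from 32.9 to 106 in LD, from 68.2 to 597 in HD and from 0 to 52.4 in cells; their part in the results was not tested. Because each array is scaled to its own median, more of an entry and less of everything else in a fraction cannot be told apart.

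The 4 entries took 3 different courses. miR-3648 was higher in HD than in cells, miR-3656 was higher in LD than in both cells and HD, and miR-3651 and miR-3687 were detected on all cell arrays and were at or near the detection limit in both fractions. The plot of signal by array shows these courses.

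**Figure D1:**
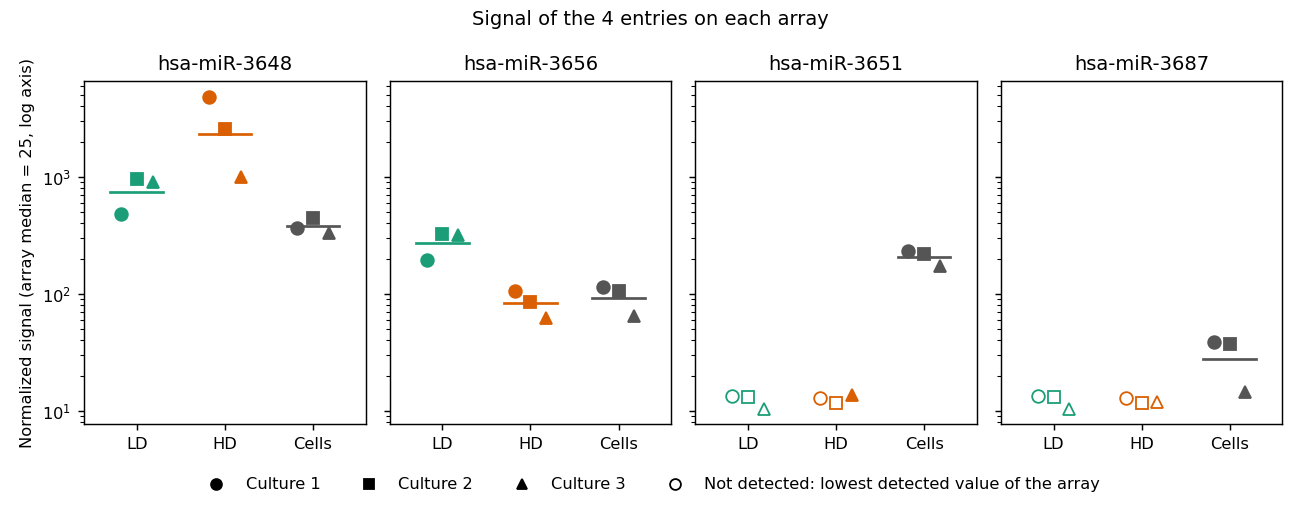
Normalized signal (log axis, median detected probe of each array = 25) of the 4 entries on each LD, HD and cell array; symbols mark the culture, open symbols undetected spots drawn at the lowest detected value of their array, and bars the geometric mean of 3 detected values. miR-3648 peaks in HD, miR-3656 in LD, and miR-3651 and miR-3687 are filled on all arrays of cells only.

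miR-3648, of which 1 copy lies ahead of the 18S part of a ribosomal RNA precursor gene, lay 66.5 to 757 SD above the blank spots on every array. Its normalized signal was 4851, 2583 and 998 in HD cultures 1, 2 and 3, against 366, 441 and 333 in the cells of the same cultures. The HD and cell arrays did not overlap, and the lowest HD array, culture 3, was above the highest cell array. The ratio of HD to cells was 13.3-fold in culture 1, 5.85-fold in culture 2 and 2.99-fold in culture 3. By limma with culture as a block, the log2 change was 2.62 ± 0.50 (SE, n = 3 per group; 95% interval 1.51 to 3.73; adjusted p = 0.000627), a 6.15-fold rise. Its direction and call held in each of the 22 other settings tried, between 1.17 with scaling by the commonly detected probes and 5.51 with scaling by the spike controls. It was 1.92 without HD replicate 1 and 3.26 without HD replicate 3.

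In LD, miR-3648 had a signal of 479, 950 and 910 in cultures 1, 2 and 3. Each LD array was above each cell array, but culture 1 lay only 1.31-fold above its own cells. The change from cells was not called, at 0.98 ± 0.50 (95% interval -0.12 to 2.09; limma adjusted p = 0.112). It was called in 9 of 22 other settings, among them without HD replicate 1 (0.98) and without LD replicate 1 (1.55). Relative to HD, LD was lower by 1.64 ± 0.50 on the log2 scale (adjusted p = 0.0174). In culture 1 LD was at 0.0987 of HD, in culture 2 at 0.368 and in culture 3 at 0.912. The highest LD value was below the lowest HD value, but narrowly, at 950 against 998. In the deposited log2 values the groups overlapped: HD culture 3 (9.59) was below LD cultures 2 (9.77) and 3 (9.85). The call between LD and HD ended in 12 of the 23 other settings with a test, although every value stayed negative. Among the 12 were those without HD replicate 1 (-0.94), HD replicate 2 (-1.71), LD replicate 1 (-1.07) or LD replicate 2 (-1.72).

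The spread of miR-3648 between cultures was widest in HD. Its SD of log2 signal was 0.55 in LD, 1.15 in HD and 0.21 in cells. Of the 142 tested probes detected on all HD arrays, 7 had an SD as large or larger, miR-3648 itself counted, and the median probe had 0.66. In cells 243 of 277 probes, miR-3648 again counted, varied at least as much as miR-3648. The order of its levels was HD, LD, cells. HD was called apart from cells and, in the main setting, from LD, a call that many other settings did not keep. LD and cells, neighbours in that order, were not called apart.

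miR-3656, named among the entries said to match ribosomal RNA, was highest in LD. Its signal was 194, 322 and 320 in LD cultures 1, 2 and 3, 105, 85.6 and 62.7 in HD, and 113, 106 and 64.4 in cells. All LD values were above all HD and cell values, and HD and cell values covered the same range. In every culture the HD value was slightly below the cell value, at 0.928, 0.807 and 0.974 of it in cultures 1, 2 and 3. LD was 2.95-fold above cells, a log2 change of 1.56 ± 0.35 (95% interval 0.79 to 2.33; limma adjusted p = 0.00264), and 3.28-fold above HD, at 1.71 ± 0.35 (adjusted p = 0.00192). On the spike controls the difference from HD was 1.05 and no longer called (limma adjusted p = 0.0564). HD and cells were not called apart, at -0.15 ± 0.35 with an interval from -0.92 to 0.62 (adjusted p = 0.693); by quantile normalization, normexp, the deposited log2 table and the spike controls HD was instead called higher, at 0.22, 0.36, 0.27 and 2.74, and with scaling by the commonly detected probes it was called lower, at -1.61. The LD rise over cells was no longer called with scaling by the commonly detected probes (0.84) or with chip as a random block (1.46).

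Chips were read from marks in the names of the deposited files, and the headers name no chip. By these marks, LD replicate 1 shared a chip with the 3 HD arrays. LD replicates 2 and 3 had 1 of their own, as did the cell arrays. Cells and chip therefore cannot be told apart. Within the shared chip, LD replicate 1 was above the mean of HD by 1.23 log2 units for miR-3656 and below it by 2.28 for miR-3648 (coded LD minus HD: -2.28). With chip as a fixed block the miR-3656 difference was 0.90 and not called (adjusted p = 0.177), and that of miR-3648 was -2.79 and called (adjusted p = 0.00206). LD replicate 1 was the lowest LD array for both entries.

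The 2 entries said to lie in ribosomal RNA that were detected on every array thus differed from each other. Whether the miR-3656 probe reports ribosomal RNA was not tested. The ratio of 2 probes on 1 array does not depend on how arrays were scaled, so its change between groups shows unequal change of the 2 entries. The ratio of miR-3648 to miR-3656 signal was 2.47, 2.95 and 2.84 in LD, 46.1, 30.2 and 15.9 in HD, and 3.22, 4.16 and 5.18 in cells, in the order of cultures 1 to 3. The 3 groups did not overlap. In HD the ratio was 6.83-fold that of cells, and in LD it was 0.668 of that of cells and 0.0979 of that of HD. An exact permutation test over all 1680 assignments of the 9 arrays to the groups gave p = 0.00357, the smallest it can give, and 0.00714 after Benjamini-Hochberg adjustment over the 6 pairs of members. Permuted within cultures, which allows fewer assignments, the adjusted p was 0.0556, from the smallest p that this permutation can give. From raw intensities it was 0.030, and from the log2 values the authors deposited it was 0.0129.

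**Figure D2:**
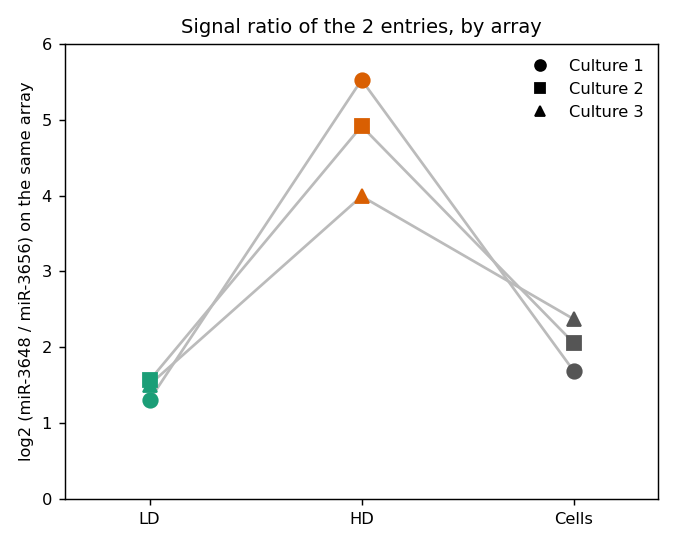
log2 of the miR-3648 signal over the miR-3656 signal on the same array, for LD, HD and cells; grey lines join the arrays of 1 culture. The 3 HD arrays lie between 3.99 and 5.53, above all LD arrays (1.31 to 1.56) and all cell arrays (1.69 to 2.37).

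miR-3651, the snoRNA entry, was present in cells and nearly absent from the signal of both fractions. On cell arrays its signal was 230, 221 and 174, which is 36.1 to 43.3 SD above the blank spots. It was detected on no LD array and on 1 HD array, replicate 3, at 13.5, close to the lowest detected value of that array, 12.0. The raw signal lay between -0.26 and 1.08 SD of the blank mean on LD arrays and between 0.51 and 2.25 SD on HD arrays. Relative to cells it was at least 16.9-fold lower in LD, a bound against the detection floor (log2 change against the floor -4.08 ± 0.27; limma adjusted p = 8.31e-06). In HD the log2 change was -4.04 ± 0.27 (adjusted p = 3.89e-07), with floor values on 2 of 3 arrays. Both calls and directions held in every other setting that gave a value, 20 for LD and 21 for HD. The smallest sizes were -0.74 and -0.68 in the deposited log2 table, which also holds values for undetected spots. However, miR-3651 entered the test through cells, so its direction was largely set in advance by the floor. The calls thus add no support beyond the pattern of detection. LD and HD were not compared for this entry, since neither held a level on all arrays.

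miR-3687, also named among the entries said to lie in ribosomal RNA, was close to the detection limit even in cells. Its level in cells was 38.9, 37.0 and 14.4, and the array of culture 3 stood only 2.99 SD above its blank spots. No LD or HD array detected it, with raw signals from -0.89 to 0.98 SD of the blank mean in LD and from -1.48 to 1.89 SD in HD. On average it was at least 2.25-fold lower in LD than in cells (limma adjusted p = 0.0116) and at least 2.27-fold lower in HD (limma adjusted p = 0.00792). In culture 3 the LD floor stood at 0.723 of the cell value and the HD floor at 0.832 of it. Since miR-3687 entered the test through cells, the direction of both calls was largely set in advance. These calls were fragile. That in HD ended without Cell replicate 2 (-0.97), and that in LD without Cell replicate 1 (-0.97), Cell replicate 2 (-0.96) or LD replicate 2 (-1.12); both also ended without scaling and with chip as a random block. On the spike controls both signs turned, but the fraction values are then floors, so no rise was shown.

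**Figure D3:**
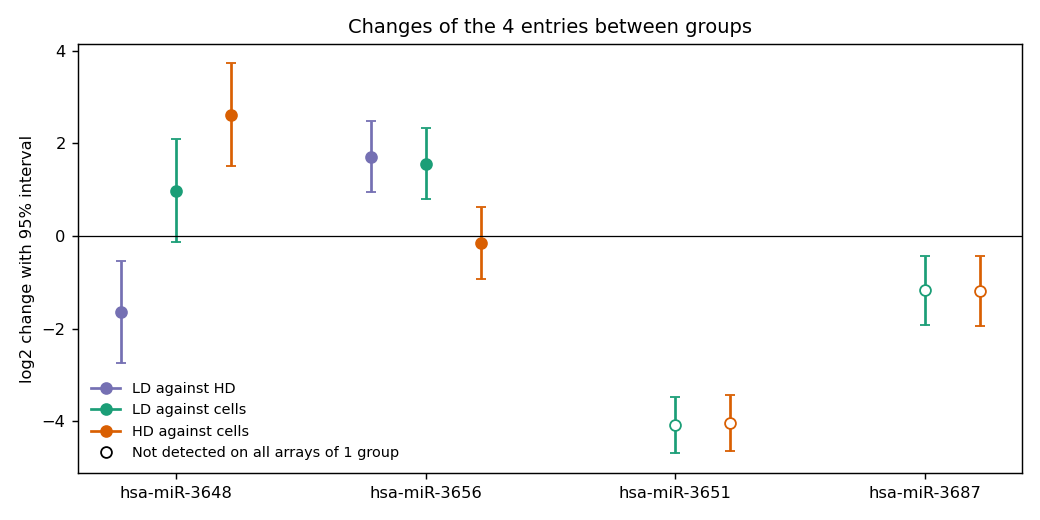
log2 changes of the 4 entries with 95% intervals from limma, for LD against HD, LD against cells and HD against cells; open symbols mark changes in which 1 group was not detected on all its arrays. The intervals of miR-3651 lie below -3.4 in both fractions, and those of miR-3648 in HD and of miR-3656 in LD lie above 0.7 against cells.

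Most probes on these arrays differed between groups, which sets the scale for the counts of members. Between HD and cells 79.9% of the 334 probes were called, 30.5% higher and 49.4% lower, and of the 4 members 1 was higher, 2 were lower and 1 was not called. Between LD and cells 60.8% were called, 16.8% higher and 44% lower, against 1 member higher, 2 lower and 1 not called. Between LD and HD 52.1% were called, 25.7% higher and 26.3% lower, against 1 member higher, 1 lower and 2 without a level on both sides. Since miR-3651 and miR-3687 entered the test through cells, an undetected fraction had to come out lower. The median log2 change of all tested probes was -0.70 for HD against cells, -0.54 for LD against cells and 0.01 for LD against HD; on the spike controls it was 2.19, 1.69 and -0.65. Relative to the median of all probes, the change of miR-3648 in HD against cells was 3.32, a distance that a scale factor per array cannot alter, and it was 1.89 with quantile normalization and 2.17 with normexp. In all, 82 probes (24.6%) were called higher in HD than in both cells and LD, as miR-3648 was, and 14 (4.19%) were called higher in LD than in both cells and HD, as miR-3656 was.

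**Figure D4:**
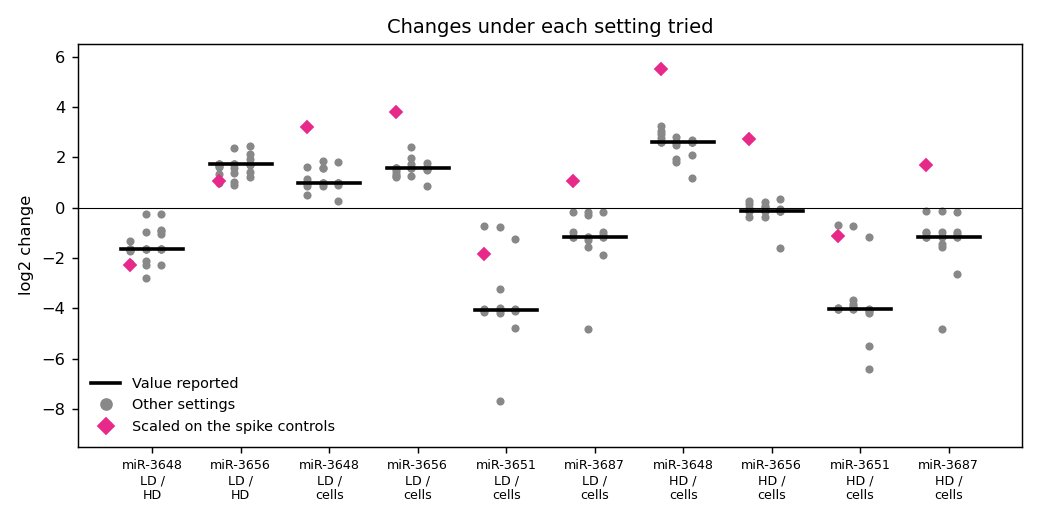
log2 changes of the 4 entries under each setting tried: black bars are the values reported, grey points other settings, and diamonds scaling on the spike controls. miR-3648 in HD and miR-3656 in LD stay above 0 and miR-3651 below 0 throughout, while miR-3687 in both fractions, and miR-3656 in HD against cells, cross 0.

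Other entries said to lie in structural RNAs were set beside the 4. Of 9 probes on the array for other snoRNA entries, 7 were detected on some cell array, 5 on all 3, and 0 on any of the 6 LD and HD arrays. The 5 are miR-664a-3p, miR-664b-3p, miR-3607-3p, miR-3607-5p and miR-3653, and the mature sequences of the first 2 overlap the snoRNA genes SNORA36B and SNORA36A in GRCh38.p14. Their geometric mean signals in cells were 120 for miR-664a-3p, 153 for miR-664b-3p, 168 for miR-3607-3p, 29.2 for miR-3607-5p and 41.7 for miR-3653. All 5 were called lower in LD and in HD, with a median log2 change against the floor of -3.30 in LD and -3.31 in HD. They too entered the test through cells, and 41 of all 334 tested probes (12.3%) had the same pattern of detection on every cell array and no fraction array. miR-3651 differed from them by its 1 HD array near the floor.

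The other listed ribosomal entry, miR-4485, averaged (geometric mean, as for the averages that follow) 19.7 in LD, 12.5 in HD and 44.3 in cells, and was detected on all LD arrays but 1 HD array. It fell in both fractions, by 1.17 ± 0.36 in LD (adjusted p = 0.0172) and by 1.82 ± 0.36 in HD (limma adjusted p = 0.000886) on the log2 scale. It thus shared neither the rise of miR-3648 in HD nor that of miR-3656 in LD. Of the 5 tRNA-related entries all fell in HD and all were higher in LD than in HD. The largest falls were those of miR-4286, which averaged 1361 in LD, 15.5 in HD (detected on 2 of 3 arrays) and 4117 in cells, and of miR-4454, at 21179, 369 and 69339. miR-1246, an entry that matches an RNA of the spliceosome, averaged 91.2 in LD, 745 in HD and 237 in cells. It rose in HD by 1.65 ± 0.39 (adjusted p = 0.00284), the only one of the 12 other tested entries to do so, and fell in LD by 1.38 (limma adjusted p = 0.0113). Over the 12, 11 fell and 1 rose in HD (median -3.73, against -0.70 over all tested probes). Of all tested probes 49.4% fell and 30.5% rose in HD. In LD 9 of the 12 fell, 0 rose and 3 were not called (median -1.49, against -0.54). Of all tested probes 44% fell and 16.8% rose in LD. miR-4485, the 5 snoRNA entries and all but 2 of the tRNA-related entries lacked detection on some or all HD arrays. Their falls in HD thus rest in part or in full on floor values, as do those of the snoRNA entries in LD.

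**Figure D5:**
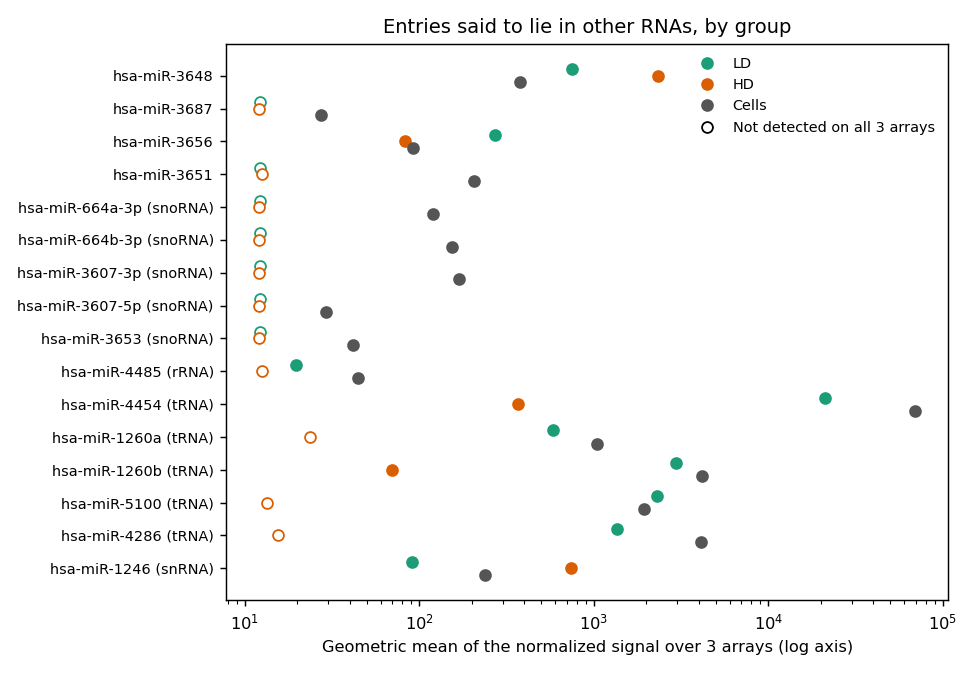
Geometric mean of the normalized signal over 3 arrays (log axis) of the 4 entries described and of 12 other tested entries said to lie in snoRNA, rRNA, tRNA or snRNA, for LD, HD and cells; open symbols mark groups without detection on all 3 arrays. The snoRNA entries are open in both fractions, and the tRNA-related entries are far lower in HD than in LD.

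miR-3648 is rich in G and C, and base composition went with the change over all probes. A mature sequence was found for 277 of the 334 tested probes (82.9%), with a median of 59.1% G plus C. Of the 35 with 80% or more, 22 rose in HD, 3 fell and 10 were not called, with a median log2 change of 0.98. Of the other 242, 63 rose, 131 fell and 48 were not called, with a median of -1.03. In LD 20 of the 35 rose, 1 fell and 14, miR-3648 among them, were not called. Of the other 242, 29 rose in LD, 120 fell and 93 were not called. Between LD and HD the 35 split into 7 higher, 13 lower and 15 not called. The 242 split into 64 higher, 61 lower and 117 not called. The part of base composition in the result of miR-3648 was not tested.

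The probes most like miR-3648 over the 9 arrays were miR-513a-5p (Pearson r = 0.978), miR-6087 (0.976) and miR-3197 (0.971), and 29 probes reached 0.9. For miR-3656 they were miR-1915-3p (0.976), miR-4734 (0.924) and miR-3665 (0.920), among 5 that reached 0.9. These are correlations of log2 signal over arrays in 3 groups, given as a description. miR-513a-5p averaged 43.8 in LD, 143 in HD and 19.2 in cells. miR-3665 averaged 465 in LD, 105 in HD and 211 in cells. The sequences are shown, seeds in capitals, because the probes closest to miR-3656 are all rich in G and C while the closest to miR-3648 is not.
hsa-miR-513a-5p: uUCACAGGgaggugucau
hsa-miR-3197: gGAGGCGCaggcucggaaaggcg
hsa-miR-1915-3p: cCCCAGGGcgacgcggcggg
hsa-miR-4734: gCUGCGGGcugcggucagggcg
hsa-miR-3665: aGCAGGUGcggggcggcg
Their share of G plus C is 50% for miR-513a-5p, 73.9% for miR-3197, 90.0% for miR-1915-3p, 81.8% for miR-4734 and 83.3% for miR-3665, and none shares a seed with miR-3648. The probes most like miR-3651 were miR-378a-3p (0.998), miR-378c (0.997) and miR-320b (0.996), and those most like miR-3687 were miR-223-5p (0.986), miR-4306 (0.977) and miR-378e (0.954). For these 2 members the correlation rests largely on shared floor values in LD and HD: miR-378a-3p, miR-320b, miR-223-5p, miR-4306 and miR-378e were detected on no fraction array and miR-378c on 1, and 84 probes reached 0.9 with miR-3651.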

How the data were processed

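Total RNA was labelled with Hy5 and hybridised to 1-colour arrays with a locked nucleic acid labelling kit, per the labels' protocols; no scanner, software or genome build is named in the sources used here. Per the file headers, the authors deposited each spot's intensity in 3 forms: raw, with background subtracted, and after global normalization. The authors subtracted 1 background value per array, a mean over blank spots trimmed by 5% at either end, and applied 1 scale factor per array, as the values show. The deposited table of log2 values is normalized between arrays by an unstated method and served as an alternative.

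Log2 normalized intensities were tested with limma 3.58.1 in R 4.3.3, with culture as a block, 4 residual and 6.05 prior degrees of freedom, two-sided, Benjamini-Hochberg adjusted p under 0.05. An undetected spot took its array's lowest detected value, and the 25 values marked NG were left out. The 334 tested probes had 3 detected values in 1 group or more. Where a group is undetected on all arrays, the fold is a bound against that floor. The number of arrays limits the precision, and p-values measure the spread between arrays of 3 cultures. Where an entry was undetected in a fraction, its spread there is that of the arrays' lowest detected values. The SE and p-values of such entries therefore do not measure the spread of the entry in that fraction. Same-numbered arrays did not deviate together: their correlations ran from -0.284 to 0.212, so the pairing rests on the design text. Named were the 4 members, the 3 probes most correlated with each, the snoRNA and rRNA entries of a fixed list and the largest changes among its other entries. Members and lists were chosen with earlier results of these data known. The model was tested on simulated data. Alternatives covered scaling, normalization, background, floor, filter, block, chip and each array left out. Plots used Python 3.11.15 and matplotlib 3.10.9.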

Additional observations from a re-analysis of the deposited data

How the results depend on the processing

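The rise of miR-3648 in HD and the falls of miR-3651 in both fractions kept their direction and call in every setting that gave a value. For miR-3651 that direction was largely set in advance, since it entered the test through cells. For HD against cells, miR-3687 was no longer called without scaling (-0.99) or with chip as a random block (-1.13) and turned to 1.71 on the spike controls, where its HD value is a floor. miR-3656, not called between HD and cells, turned positive without scaling (0.045), on the spike controls (2.74), with quantile normalization (0.22), with normexp (0.36), from the deposited log2 values (0.27), with chip as a random block (0.15) and without Cell replicate 1 (0.035), and was called lower with scaling by the probes that every array detected (common-probe scaling, -1.61); for the quantile, normexp, table and spike values the rise was called. For LD against cells, miR-3687 was -0.31 without scaling and -1.19 with chip as a random block, not called, and 1.06 on the spike controls. miR-3656 was not called at 0.84 (common-probe scaling) and 1.46 (chip as a random block). miR-3648 became called on the spike controls (3.21), with normexp (1.82), from the deposited log2 values (1.62), with quantile normalization (1.57), and at 0.98 with undetected values missing, with only the probes detected on all 9 arrays and with only the 2 groups compared. For LD against HD, miR-3648 was not called without scaling (-0.98), with common-probe scaling (-0.91), with normexp (-0.26), from the deposited log2 values (-1.31), with quantile normalization (-0.24), and at -1.64 with log2 of the value plus 1, with the wider filter and with only 2 groups. miR-3656 was not called on the spike controls (1.05) or with chip as a fixed block (0.90), and moved to 1.23 within the shared chip.

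With each array left out in turn, the change from cells in HD ran from 1.92 to 3.26 for miR-3648, -4.21 to -3.93 for miR-3651, -0.37 to 0.035 for miR-3656 and -1.59 to -0.97 for miR-3687. In LD it ran from 0.49 to 1.55, -4.17 to -4.00, 1.21 to 1.97 and -1.57 to -0.96 for the same entries. LD against HD ran from -2.28 to -0.94 for miR-3648 and from 1.37 to 2.12 for miR-3656. Without the replicate block no member's call changed. Permuted within cultures (the replicate block), the adjusted p of the 6 ratios of members was 0.0556 for miR-3656 with each of the others, 0.0667 for miR-3648 with miR-3651 and miR-3687, and 0.111 for miR-3651 with miR-3687 (0.0357 unblocked). The ratio of miR-3651 to miR-3687 rests on cells alone, as both are at the floor elsewhere.

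The number of probes called between HD and cells, 267, was 140 with undetected values missing and 58 on probes detected on all 9 arrays. Between LD and cells 203 became 95 without scaling, 44 on probes detected on all 9 arrays and 133 with chip as a random block. Between LD and HD 174 became 100 without scaling, 113 with values missing and 54 on probes detected on all 9 arrays. The split of higher and lower calls was 102 and 165 for HD against cells, 55 and 220 with common-probe scaling, 223 and 56 on the spike controls, 77 and 63 with undetected values missing and 50 and 8 on probes detected on all 9 arrays. For LD against cells it was 56 and 147, 46 and 49 without scaling, 82 and 122 with normexp, 71 and 117 from the deposited log2 values, 76 and 117 with quantile normalization, 20 and 187 with common-probe scaling, 202 and 31 on the spike controls, 36 and 136 with log2 of the value plus 1, 39 and 5 on probes detected on all 9 arrays, 16 and 117 with chip as a random block, 37 and 132 without Cell replicate 2 and 32 and 140 without Cell replicate 3. For LD against HD it was 86 and 88, 71 and 29 without scaling, 119 and 53 with common-probe scaling, 52 and 107 on the spike controls, 50 and 63 with values missing, 15 and 39 on probes detected on all 9 arrays, and 50 and 77 with chip as a fixed block. Where a setting changed a call, the cause was not tested.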

Other observations

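The spike control spots, used above only as an alternative scale, had a median background-subtracted signal of 1307, 3502 and 4861 on LD arrays 1 to 3, 1572, 399 and 2249 on HD arrays and 12633, 6383 and 4761 on cell arrays. The lowest cell array was thus below the highest LD array.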
